A study of Mus musculus with 8 samples.

Results

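Cytotoxic and T lymphocyte genes were examined as a set of 10 in wounded mouse corneas: the granule genes Gzma, Gzmb, Prf1 and Nkg7, the natural killer (NK) cell receptor genes Klrk1 and Klrd1, the CD3 genes Cd3e and Cd3g, and the receptor chain genes Il2rb and Il2rg. They were chosen by gene symbol, and all 10 were among the 16091 genes of the deposited table. RNA came from whole corneas of 2 genotypes, with 4 samples labelled Opn5-/- (called Opn5-null here) and 4 labelled wild-type. In both groups the epithelium had been scraped off 12 hours earlier. Opn5 encodes opsin 5, a violet- and ultraviolet-sensitive photopigment. Every sample title holds the word Light, and the labels used here do not say what it stands for. The sources used here give no strain, age, sex or design of the Opn5 allele.

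Killer lymphocytes, which include NK cells and CD8 T cells, store granzymes and perforin in granules and release them onto a target cell. Perforin opens the way into the target, and granzymes, which are serine proteases, cleave proteins inside it. NK receptors and the CD3 chains of the T cell receptor decide whether a cell is attacked, and interleukin 2 and interleukin 15 signal to these cells through chains encoded by Il2rb and Il2rg. The uninjured cornea holds few lymphocytes, and in mice gamma-delta T cells and NK cells are known to enter it after epithelial injury.

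The targeted gene, Opn5, was not analysed here, so the genotypes rest on the labels. Recovered reads ranged from 21111715 to 28219234 per library. Cornea genes were present in every library: the summed level of 7 cornea markers (Krt12, Krt5, Pax6, Aldh3a1, Kera, Lum and Slc4a11) was 90630 to 291472 normalized counts in Opn5-null and 329235 to 507026 in wild-type libraries. Of the 7, Lum was called higher, Slc4a11 lower and 5 were not called. The median log2 fold change of the 7 was -1.34. In 3 of them every Opn5-null library lay below every wild-type library, and in 1 above. The call for Lum was lost after quantile normalization (adjusted p = 0.0972 by limma). Separate animals are not named in the labels, so the p-values rest on a sample-to-sample spread that may be technical. In bulk RNA, fewer cells of a type and less RNA per cell cannot be told apart.

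Promoter sequences are shown for the granule genes, since their products act together and all 4 were higher in Opn5-null corneas. Of the 10 genes, 8 matched the RefSeq promoter table (GRCm38.p6), whose entries run from 250 bases before to 50 bases after the start site, 5′ to 3′ on the gene's strand. Those of Gzma (chr13:113100932-113101231, minus strand), Gzmb (chr14:56262285-56262584, minus), Prf1 (chr10:61297586-61297885, plus) and Nkg7 (chr7:43436888-43437187, plus) follow. Capitals mark matches, on either strand, to letters bound by 4 kinds of factor: TGTGGT (RUNX), TTCNNNGAA (STAT), TGACTCA (AP-1) and AGGTGTGA (T-box).
Gzma: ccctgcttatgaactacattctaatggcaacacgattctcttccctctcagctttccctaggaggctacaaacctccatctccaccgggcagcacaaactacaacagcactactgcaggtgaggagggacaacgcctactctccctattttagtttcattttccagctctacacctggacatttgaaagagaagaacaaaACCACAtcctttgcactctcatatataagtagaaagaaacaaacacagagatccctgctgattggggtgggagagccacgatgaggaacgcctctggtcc
Gzmb: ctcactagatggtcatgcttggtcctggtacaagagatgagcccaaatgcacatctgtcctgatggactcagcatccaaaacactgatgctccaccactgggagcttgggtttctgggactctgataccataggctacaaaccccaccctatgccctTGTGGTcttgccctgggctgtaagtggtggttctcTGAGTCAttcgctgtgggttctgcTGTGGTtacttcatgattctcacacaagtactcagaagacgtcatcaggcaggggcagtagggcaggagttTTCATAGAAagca
Prf1: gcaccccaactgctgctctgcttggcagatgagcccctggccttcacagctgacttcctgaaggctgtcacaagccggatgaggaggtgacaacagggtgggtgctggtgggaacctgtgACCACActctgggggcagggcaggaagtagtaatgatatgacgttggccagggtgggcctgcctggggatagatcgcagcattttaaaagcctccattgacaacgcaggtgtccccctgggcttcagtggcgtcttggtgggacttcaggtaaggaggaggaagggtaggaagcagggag
Nkg7: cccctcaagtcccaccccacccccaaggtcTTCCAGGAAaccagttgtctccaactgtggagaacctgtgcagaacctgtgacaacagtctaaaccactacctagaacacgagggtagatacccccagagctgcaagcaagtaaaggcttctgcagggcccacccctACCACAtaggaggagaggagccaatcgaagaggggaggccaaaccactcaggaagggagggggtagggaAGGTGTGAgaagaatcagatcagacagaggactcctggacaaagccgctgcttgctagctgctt

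The RUNX letters were in all 4 of these windows and in 6 of the 8 matched, with Klrk1 and Il2rg as the other two, against 16.7% of 32544 promoters of the same length. In Gzma the match began 50 bases before the start site. Gzmb held RUNX matches 93 and 34 bases before it, with an AP-1 match between them at 58. The AP-1 letters were in 2 of 8 windows (Gzmb and Klrk1) against 5.19% of all, and the STAT letters in 2 of 8 (Gzmb and Nkg7) against 8.33%. The T-box letters were found in Nkg7, 14 bases before the start site, and in 1.28% of all promoters. These positions count from the start sites of the promoter table. GENCODE M21 begins Gzmb at chr14:56262260, outside the window shown. It begins Nkg7 at chr7:43437073, inside the window but at a different base from the promoter table. The letters AGGAAG (ETS), not in capitals above, was in 4 of 8 windows against 35.1% of all. No match overlapped another in the 8 windows. These are letter matches in short windows, and no binding was measured.

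All 10 genes were higher in Opn5-null corneas at an adjusted p below 0.05, by limma on log2(normalized count + 1) with Benjamini-Hochberg adjustment over 16085 genes. Over all genes tested, 18.8% were called higher and 13.5% lower, and limma-voom on whole reads called 24.7% higher and 22.1% lower. Gzmb and Gzma differed most, by 24.8-fold and 16.4-fold, and Klrd1, Cd3e and Cd3g least, by 2.25-fold, 2.84-fold and 3.23-fold. Folds are ratios of mean normalized counts. The median log2 fold change of the 10 was 2.38, against -0.02 over all genes tested. In 9 of the 10 every Opn5-null library lay above every wild-type library, and Cd3e was the exception, while 20.3% of all genes showed this separation and 18.1% the opposite one. Low reads bear on these counts. The lowest total of any gene in the table was 81 reads over the 8 libraries, and 6 of the 10 had fewer than that in the wild-type libraries alone, so they could be in the table only through their Opn5-null reads. Of 1678 genes tested with so few wild-type reads, 29.3% were called higher, against 17.6% of the rest.

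**Figure D1:**
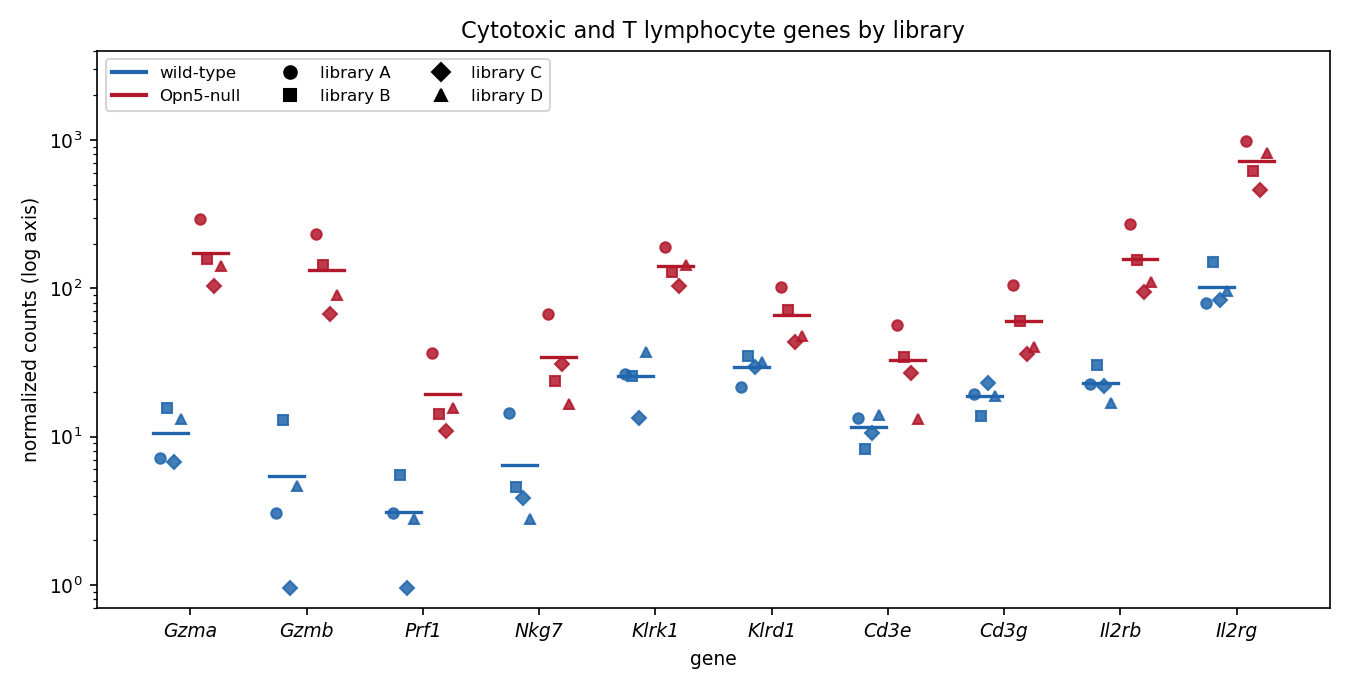
Normalized counts (log axis) of the 10 genes in each of the 8 libraries; marker shapes give the library letter and horizontal lines the mean of 4. Opn5-null libraries lie above wild-type libraries for 9 genes, Cd3e overlaps, and Opn5-null A is the highest library for all 10.

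Gzma encodes granzyme A, a trypsin-like protease of NK and T cell granules. It measured 295, 158, 103 and 141 normalized counts in Opn5-null A to D, and 7.16, 15.6, 6.69 and 13.1 in wild-type A to D. The lowest Opn5-null library was 6.59 times the highest wild-type library, the widest gap of the 10. The means were 174 ± 83.7 and 10.6 ± 4.41 (SD, n = 4), which on the log2 scale is a rise of 3.88 ± 0.38 (SE; limma adjusted p = 0.000258). Wild-type reads numbered 45 over the 4 libraries, against 642 in Opn5-null libraries.

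Gzmb encodes granzyme B, which activates caspases in target cells. Its Opn5-null values were 233, 145, 66.9 and 90.5 normalized counts in A to D, and its wild-type values were 3.07, 12.9, 0.956 and 4.67. Wild-type B held 14 of the 23 wild-type reads and wild-type C only 1. The rise on the log2 scale was 4.59 ± 0.62 (SE; limma adjusted p = 0.00104), the largest of the 10. Leaving out wild-type B raised the ratio of means from 24.8 to 46.2.

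Prf1, the perforin gene, was the least abundant of the 10 in reads, with 71 in Opn5-null and 13 in wild-type libraries. It stood at 36.8, 14.2, 10.9 and 15.7 normalized counts in Opn5-null A to D and at 3.07, 5.51, 0.956 and 2.80 in wild-type A to D. The groups did not overlap, and the fold was 6.29 (log2 fold change 2.29 ± 0.49 SE, adjusted p = 0.00871 by limma). Nkg7 encodes a membrane protein of cytotoxic granules. Its values were 67.1, 23.7, 31.0 and 16.5 normalized counts in Opn5-null A to D and 14.3, 4.59, 3.82 and 2.80 in wild-type A to D. Wild-type A stood apart from the other wild-type libraries and came close to the lowest Opn5-null library, D. The fold for Nkg7 was 5.42 (log2 fold change 2.31 ± 0.55 SE, adjusted p = 0.0134 by limma), and 9.25 without wild-type A.

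Klrk1 encodes NKG2D, an activating receptor for stress-induced ligands on NK and T cells. It measured 191, 128, 103 and 144 normalized counts in Opn5-null A to D and 26.6, 25.7, 13.4 and 37.4 in wild-type A to D. Klrk1 varied least among the Opn5-null libraries, with a coefficient of variation of 26.2%, where the 10 genes ran up to 65.0%. Its fold was 5.49 (log2 fold change 2.46 ± 0.32 SE, adjusted p = 0.000841 by limma). Klrd1 encodes CD94, which pairs with NKG2 chains to read the class I molecule Qa-1. Its values were 103, 71.1, 43.5 and 47.9 normalized counts in Opn5-null A to D, and 21.5, 34.9, 29.6 and 31.8 in wild-type A to D. Opn5-null C and D lay only a little above wild-type B. The log2 fold change of Klrd1 was 1.08 ± 0.30 (SE, adjusted p = 0.0251 by limma). That call was lost without Opn5-null B, wild-type A, wild-type C or wild-type D, with adjusted p from 0.0521 to 0.0740, and with the library letter as a block (adjusted p = 0.0602).

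Cd3e and Cd3g encode the epsilon and gamma chains of CD3, the signalling part of the T cell receptor, and lie close together on chromosome 9, with Cd3d between them. Cd3e measured 56.6, 34.4, 26.8 and 13.1 normalized counts in Opn5-null A to D and 13.3, 8.27, 10.5 and 14.0 in wild-type A to D. Opn5-null D fell within the wild-type range. The Cd3e difference passed narrowly (log2 fold change 1.28 ± 0.42 SE, adjusted p = 0.0463 by limma) and was lost when any library other than Opn5-null D was left out, with adjusted p from 0.0637 to 0.109, and with the library letter as a block (adjusted p = 0.0717). Without Opn5-null D it was 1.64 (limma adjusted p = 0.00644). In GENCODE M21, Cd3e overlaps Gm48719 on the other strand and Gm48720 on its own, and Il2rg overlaps Gm20489, so their reads may be shared. The sources used here give no strand setting for the counting. Cd3g stood at 105, 60.5, 36.0 and 40.0 normalized counts in Opn5-null A to D, above the 19.4, 13.8, 22.9 and 18.7 of wild-type A to D. Its log2 fold change was 1.53 ± 0.35 (SE, adjusted p = 0.0114 by limma).

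Il2rb encodes the beta chain shared by the receptors for interleukin 2 and interleukin 15. It measured 272, 155, 93.7 and 110 normalized counts in Opn5-null A to D and 22.5, 30.3, 22.0 and 16.8 in wild-type A to D. Every Opn5-null library was at least 3.09 times the highest wild-type library. The fold was 6.89 (log2 fold change 2.63 ± 0.34 SE, adjusted p = 0.000843 by limma). Il2rg, on the X chromosome, encodes the common gamma chain, which myeloid cells also express. Its values were 983, 614, 459 and 816 normalized counts in Opn5-null A to D and 79.8, 152, 83.2 and 96.2 in wild-type A to D. The groups were well apart, and the log2 fold change of Il2rg was 2.78 ± 0.28 (SE, adjusted p = 0.000307 by limma).

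**Figure D2:**
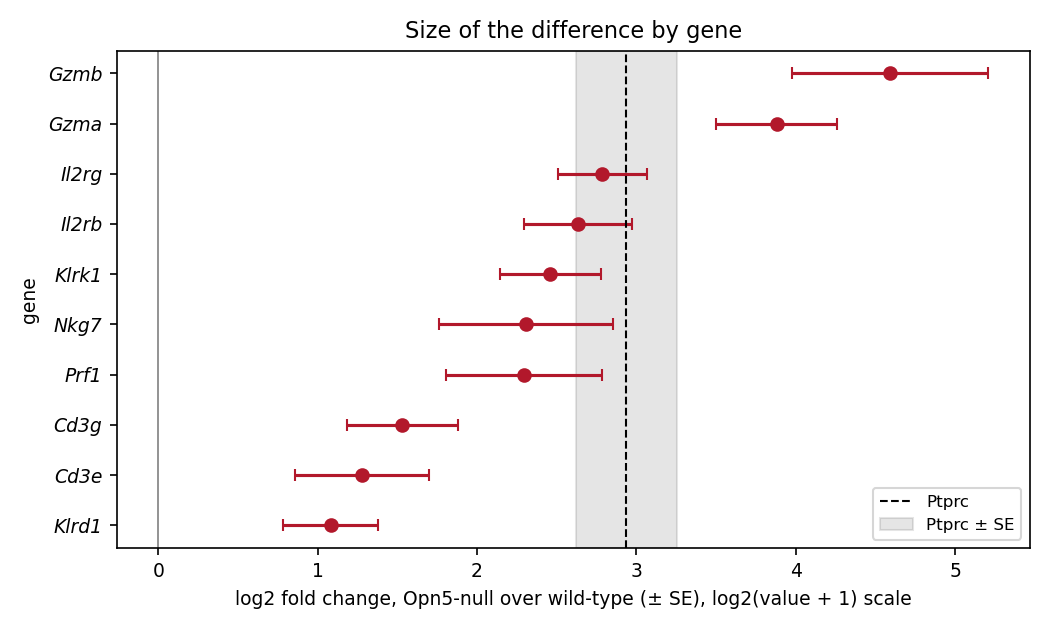
Log2 fold change of each gene (Opn5-null over wild-type, log2(value + 1) scale) with its SE as bars, 4 libraries per group. The dashed line and band mark Ptprc, 2.94 ± 0.32 (SE); Gzma and Gzmb lie to its right and the other 8 genes to its left, of which Il2rg (2.78) and Il2rb (2.63) are within the band.

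The Opn5-null libraries kept a similar order across genes. Opn5-null A was the highest for 10 of 10 genes, and the lowest was C for 8 and D for the other two, Nkg7 and Cd3e. Summed over the 10, levels were 2343, 1403, 974 and 1434 normalized counts in Opn5-null A to D and 211, 303, 194 and 238 in wild-type A to D. Ptprc, the gene of the pan-leukocyte protein CD45, followed the same order at its ends, with 14201, 10296, 5322 and 11037 normalized counts in Opn5-null A to D. In wild-type A to D it was 858, 1684, 1158 and 1492. Ptprc rose 7.87-fold (log2 fold change 2.94 ± 0.32 SE, adjusted p = 0.000421 by limma). The part of leukocyte content in the differences of the 10 genes was not tested beyond the ratios that follow.

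Each gene was set against Ptprc within a library, as a log2 ratio of values with 1 added, and the genotypes were compared by a two-sided exact permutation test. With 4 against 4 libraries the smallest p this test can give is 0.0286, and the adjustment over 10 ratios passes only if at least 6 of them reach it. The ratio had that p for 5 genes, in opposite directions, and none of the 10 passed (adjusted p = 0.0571 for these 5). Gzma stood higher against Ptprc in every Opn5-null library, by 0.95 on average (log2), and Gzmb by 1.66. For Gzmb the groups nearly touched, at -6.91 in Opn5-null D and -6.93 in wild-type B. Wild-type C, with 1 Gzmb read, was lowest at -9.21. Klrd1, Cd3e and Cd3g stood lower against Ptprc in every Opn5-null library, with differences of -1.85, -1.66 and -1.41 on the log2 scale. For Cd3e the groups were close, at -7.58 in Opn5-null C and -7.51 in wild-type B. For Il2rg the ratio was -3.80 ± 0.22 in Opn5-null and -3.65 ± 0.25 in wild-type libraries (SD, n = 4), and for Il2rb -6.05 ± 0.42 and -5.75 ± 0.49. Klrk1, Prf1 and Nkg7 overlapped between genotypes in this ratio, with differences of -0.48, -0.64 and -0.63.

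**Figure D3:**
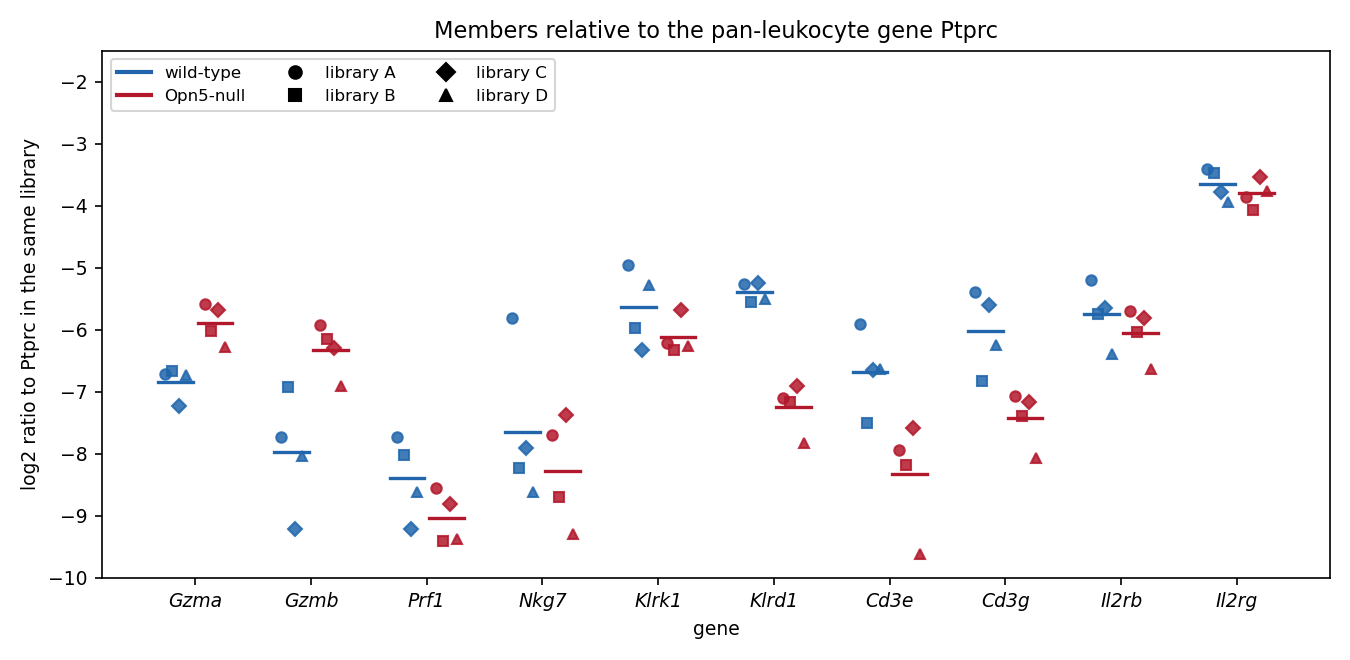
Log2 ratio of each gene to Ptprc in the same library, by genotype; marker shapes give the library letter and lines the mean of 4. The Opn5-null libraries lie above the wild-type libraries for Gzma and Gzmb, below them for Klrd1, Cd3e and Cd3g, and overlap for the other 5 genes.

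Pairs of related genes were compared the same way, over 5 pairs. Prf1 fell behind Gzmb: the log2 ratio was -2.71 ± 0.37 in Opn5-null and -0.42 ± 0.52 in wild-type libraries (SD, n = 4), a difference of -2.30 with no overlap (exact permutation p = 0.0286, adjusted p = 0.0714). The wild-type ratios rest on few reads, 3, 6, 1 and 3 of Prf1 and 3, 14, 1 and 5 of Gzmb in A to D. In wild-type A and C the ratio was 0. Klrd1 against Klrk1 was -1.13 ± 0.34 and 0.25 ± 0.65 (SD, n = 4), also without overlap (exact permutation p = 0.0286, adjusted p = 0.0714). Neither passed the threshold, although both had the smallest p the test can give. Over 5 pairs their adjusted p thus depends on how many other pairs reach it. Without wild-type B, Gzma against Gzmb reached it as well, and all 3 had an adjusted p of 0.0476 (exact permutation test). With all libraries Gzma against Gzmb differed by -0.71 (exact permutation p = 0.114). The ratios of Cd3g to Cd3e and of Il2rb to Il2rg differed by 0.25 and -0.15 and overlapped (exact permutation p = 0.429 and 0.629).

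Levels of different genes were compared per kilobase of exon (union of GENCODE M21 exons). The order depends on these lengths, and which transcripts were expressed was not examined. Klrk1 has 7.18 kilobases and Klrd1 1.28, with means of 141 and 66.3 normalized counts in Opn5-null corneas. In Opn5-null corneas Il2rg was highest at 301 normalized counts per kilobase, followed by Gzma at 173, Gzmb at 93.1, Klrd1 at 51.7, Nkg7 at 37.8, Il2rb at 36.8, Klrk1 at 19.7, Cd3g at 18.5, Cd3e at 8.01 and Prf1 at 7.51. No neighbours in that order differed by more than the sum of their SDs. In wild-type corneas the order began with Il2rg at 43.0 and Klrd1, which there exceeded Gzma at 10.6. Gzmb at 3.75 lay seventh there, after Nkg7 at 6.98, Cd3g at 5.72 and Il2rb at 5.34. Klrk1 at 3.59, Cd3e at 2.82 and Prf1 at 1.19 came last. Only Il2rg from Klrd1, Klrd1 from Gzma and Cd3e from Prf1 differed by more than the sum of their SDs among wild-type neighbours.

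Other genes of the same cells and pathways were read from 7 lists. Of 105 distinct genes tested, 70 rose and 2 fell (background 18.8% higher), with a median log2 fold change of 1.29. Of the 70, 24 had fewer than 81 wild-type reads. In the list of T cell receptor and proximal signalling genes, 15 of 23 rose and 1 fell. Of these 15, 9 had fewer than 81 wild-type reads. Trbc1, a T cell receptor beta constant gene with a near-identical copy that can share its reads, measured 84.2, 42.7, 29.3 and 31.3 normalized counts in Opn5-null A to D and 7.16, 3.68, 7.65 and 15.9 in wild-type A to D (log2 fold change 2.34, adjusted p = 0.00613 by limma). Trdc, the delta chain constant gene of gamma-delta T cells, rose 3.68-fold (80.5 ± 17.9 against 21.9 ± 6.03, SD, n = 4). The CD8 genes Cd8a and Cd8b1 rose by 2.08 and 1.94 on the log2 scale. Trac, the alpha chain constant gene, and Cd4 were not called, at 1.01 and 0.74 (adjusted p = 0.157 and 0.210 by limma). Cd3d, the remaining CD3 chain gene, was 1.49 with adjusted p = 0.0556. Whether Cd8a and Cd4 differed in response was not tested. Cd28, a costimulatory receptor gene, was the one that fell, from 228 ± 53.7 to 66.6 ± 25.0 normalized counts (SD, n = 4; log2 fold change -1.80, adjusted p = 0.00208 by limma), with no overlap between groups. Per kilobase of exon, Cd28 measured 37.3 normalized counts in wild-type corneas, against 2.82 for Cd3e and 5.72 for Cd3g. Which cells expressed Cd28 was not tested. The largest rises in this list include adaptor genes that myeloid cells also use, such as Lcp2 (11.8-fold) and Fyb (3.94-fold).

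NK cell receptor and adaptor genes rose in 13 of 19 cases and none was called lower by limma. Klrb1c, which encodes NK1.1, was even among the Opn5-null libraries at 31.6, 34.4, 27.6 and 32.2 normalized counts, against 3.07, 6.43, 1.91 and 3.74 in wild-type A to D. It was 8.30-fold higher (log2 fold change 2.84 ± 0.33 SE, adjusted p = 0.000491 by limma), with only 16 wild-type reads. Klrc1, whose product NKG2A pairs with CD94, and the receptor gene Klre1 rose by 2.21 and 2.84 on the log2 scale. Hcst, which encodes the NKG2D adaptor DAP10, rose 7.55-fold. Tyrobp and Fcer1g, adaptor genes shared with myeloid cells, rose 6.75-fold and 7.83-fold, and Slamf7 11.2-fold. Klra7 and Klra8 belong to a family of near-identical genes whose reads can be shared and whose copies differ between mouse strains. They were called higher at 2.34 and 1.95 on the log2 scale, Klra8 narrowly (limma adjusted p = 0.0496) and with overlap between groups. Ncr1, and 8 other listed genes, were not analysed here.

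Granule effector and exocytosis genes rose in 9 of 16 cases and none was called lower by limma. Fasl, the gene of a death ligand of killer lymphocytes, measured 43.4, 20.2, 14.2 and 23.5 normalized counts in Opn5-null A to D and at most 4.59 in a wild-type library. The chemokine gene Ccl5 rose 5.25-fold and Srgn, whose proteoglycan packs granules in many leukocytes, 14.2-fold. Ctsc, which encodes the protease that activates granzymes, rose 1.66-fold. Gzmm, a further granzyme gene, measured 21.5 ± 6.11 and 18.4 ± 3.40 normalized counts (SD, n = 4) and was not called (log2 fold change 0.19, adjusted p = 0.640 by limma). Serpinb9, which encodes a granzyme B inhibitor, rose 1.67-fold.

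Ligands read by the NK receptors were mixed, with 3 of 6 genes higher. Raet1d, an NKG2D ligand gene, measured 149, 152, 99.6 and 219 normalized counts in Opn5-null A to D and 22.5, 19.3, 16.3 and 19.6 in wild-type A to D. It rose 7.96-fold (adjusted p = 0.000137 by limma). H60b, another, was far less even, at 354, 128, 16.7 and 66.2 against 6.14, 11.9, 8.60 and 4.67 (log2 fold change 3.35 ± 0.81 SE, adjusted p = 0.0151 by limma). H2-T23, which encodes the CD94 ligand Qa-1 in a multigene family, rose 2.40-fold. H60c, a further NKG2D ligand gene, was not called, at 2034 ± 1185 and 4136 ± 580 normalized counts (SD, n = 4; adjusted p = 0.0967 by limma), although every Opn5-null library lay below every wild-type library. Of this list 1 gene was called lower without Opn5-null D and by limma-voom.

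Cytokines, receptor partners and signalling genes of the common gamma chain rose in 11 of 14 cases. Il15, whose product signals through the chains of Il2rb and Il2rg, measured 876, 678, 380 and 824 normalized counts in Opn5-null A to D and 89.0, 104, 131 and 85.9 in wild-type A to D, a 6.73-fold rise (adjusted p = 0.000303 by limma). Il15ra, which presents it, rose 2.22-fold. The receptor genes Il7r, Il21r and Il2ra rose 7.51-fold, 4.99-fold and 5.06-fold, and the signalling genes Stat5a and Jak3 2.35-fold and 1.51-fold. The cytokine genes Il4 and Il7 were not called, at 0.39 and 0.27 on the log2 scale. No gene of the list was called lower in the main limma fit. In other limma fits 1 was called lower, after quantile normalization, after upper-quartile scaling, with the library letter as a block and without Opn5-null C. DESeq2 also called 1 lower.

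Among transcription factors of cytotoxic lymphocytes 7 of 12 rose and 1 fell. Runx3, a factor of CD8 T and NK cells, rose 7.79-fold, Stat4 8.12-fold and Eomes 3.51-fold. Zeb2 and Irf8, which myeloid cells also express, rose 5.68-fold and 4.33-fold. Hopx, also expressed in epithelia, fell from 4020 ± 409 to 1554 ± 837 normalized counts (SD, n = 4; adjusted p = 0.0470 by limma). The Hopx call was lost without Opn5-null A or B or any wild-type library (limma adjusted p = 0.0567 to 0.109). It was also lost by edgeR (adjusted p = 0.0522) and by limma without its trend and robust settings (adjusted p = 0.0597). Opn5-null D was the lowest library, at 329 normalized counts. Without Opn5-null D the log2 fold change of Hopx was -1.03 (limma adjusted p = 0.000264). Of the chemokine and adhesion receptor genes, 12 of 15 rose. Cd69, an early activation marker, measured 1024, 514, 249 and 709 normalized counts in Opn5-null A to D and at most 45.9 in wild-type libraries, a 24.3-fold rise. The integrin genes Itgal and Itgb2, which together encode LFA-1, rose 9.19-fold and 9.57-fold. Cxcr3, a chemokine receptor gene of activated T cells, was not called, at 1.29 (adjusted p = 0.0594 by limma).

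**Figure D4:**
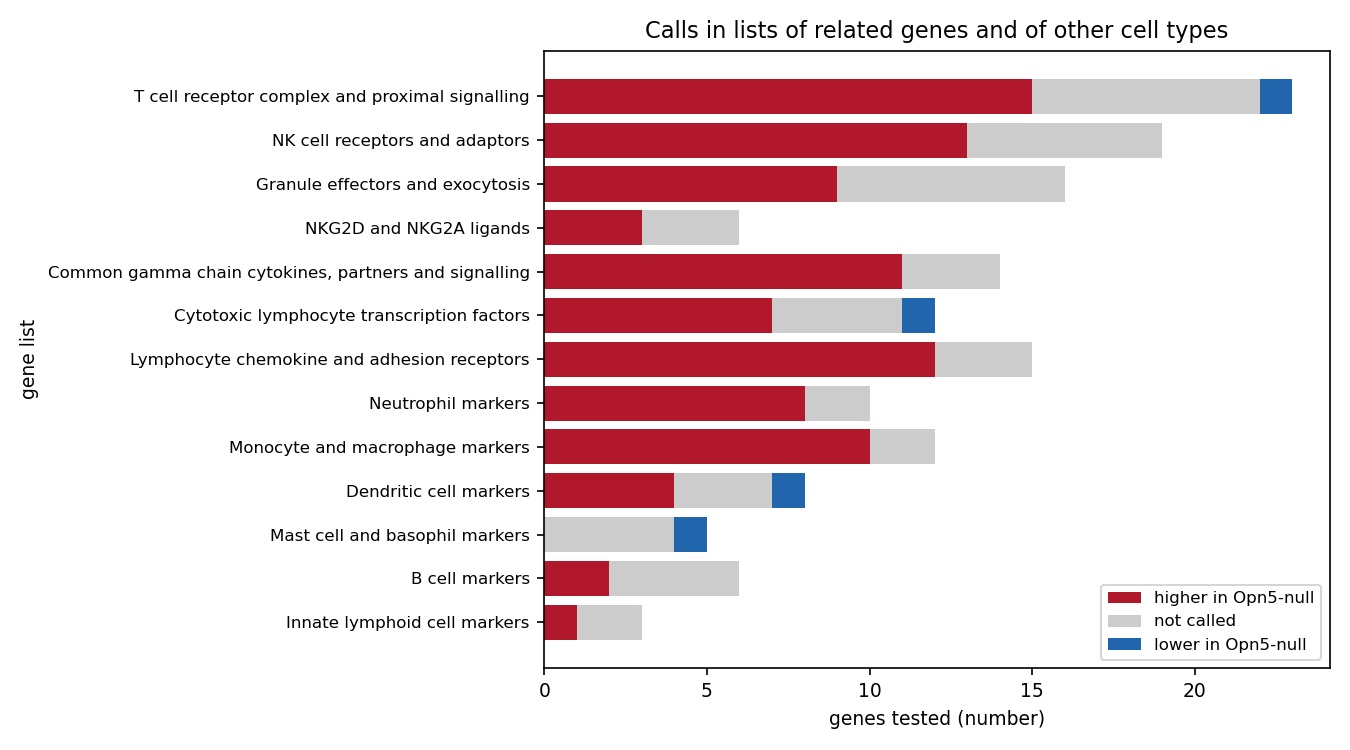
Number of genes tested in each list, split into those called higher in Opn5-null, not called, and called lower (limma, adjusted p below 0.05). Most genes of the T cell, NK cell, common gamma chain and adhesion lists were higher, as were 8 of 10 neutrophil and 10 of 12 monocyte and macrophage markers.

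Markers of other cells moved alongside, and their part in the differences of the 10 genes was not tested. Neutrophil markers rose in 8 of 10 cases, with summed levels of 43567 to 138771 normalized counts in Opn5-null and 16916 to 31690 in wild-type libraries. Monocyte and macrophage markers rose in 10 of 12, with sums of 40109 to 108363 and 8499 to 14264. Dendritic cell markers rose in 4 of 8 and fell in 1, with sums of 741 to 2040 and 329 to 368. Mast cell and basophil markers, cells that can also express granzyme B in mice, rose in 0 of 5 and fell in 1 by limma, with sums of 456 to 849 and 939 to 1293. The gene that fell was Kit, a growth factor receptor gene that other cells also express, and it made up most of these sums (512 ± 148 against 955 ± 136 normalized counts, SD, n = 4). The median log2 fold change of the 5 was 0.40, and Mcpt4, Cma1 and Tpsb2, which encode mast cell proteases, measured 0.40, 0.62 and 0.71 without being called. In that list 3 genes were called higher by limma-voom and 1 without wild-type C. B cell markers rose in 2 of 6, Ighm and Pax5, with sums of 270 to 789 and 188 to 269. The Pax5 call was lost in several alternatives (adjusted p = 0.0562 to 0.0800). Of 3 innate lymphoid cell markers tested, 2 were not called, and the sums overlapped, at 10373 to 30229 and 7821 to 11463. The one called, Il17a, the interleukin 17A gene, rose 11.9-fold. It measured at most 5.61 normalized counts in a wild-type library and at least 12.6 in an Opn5-null library. No marker of these 6 lists was at 0 in any library.

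The genes closest to each of the 10 in pattern were found by the root mean square difference of centred log2 values over the 8 libraries. Predicted-gene codes (Gm and Rik names) and genes without a symbol were left out of this ranking. Il2rg was closest to Ccl6 at 0.12, Cd52 at 0.13 and Tlr2 at 0.15, which are leukocyte genes. Gzma was closest to H2-Q7, Bcl2a1a and Bcl2a1b at 0.18 to 0.19, all members of multigene families. Prf1 was closest to Cd2 at 0.22, a T and NK cell adhesion gene, and Cd3e to Itgae at 0.26, the gene of the integrin CD103. For the others the closest gene was not a lymphocyte marker: Gbp8 for Nkg7 at 0.34, Casp1 for Klrk1 at 0.17, Tifa for Klrd1 at 0.13, Mllt6 for Cd3g at 0.18 and Htr7 for Il2rb at 0.21. The next closest was a T cell gene for Klrd1 (Lat at 0.15) and Nkg7 (Ctla4 at 0.46). For Il2rb, AW112010 and then Ctla4 followed, both at 0.24. For Klrk1 the next were Txlnb and Cd200r4, and for Cd3g Arid5b and Lrch4. Among the genes ranked, Gzmb had none closer than Nos2 at 0.45, the largest such distance of the 10. Within the 10, Il2rb with Il2rg (0.35) and Cd3e with Cd3g (0.36) were the closest pairs, and Gzmb with Cd3e and with Klrd1 the farthest at 1.88.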

How the data were processed

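Total RNA of 8 whole mouse corneas was sequenced after ribosomal and globin RNA depletion with a stranded kit, per the labels' protocols. RSEM 1.3.1 was used, per the submitters' processing notes. The sources used here name no aligner, build or annotation. The deposited signal values are gene counts scaled by a size factor per library, as their steps show. Scaling a library so that its smallest nonzero value is 1 read made 100% of values whole within 0.001. The log2 changes and p-values of the authors' own deposited comparison were not used.

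The main test was limma 3.58.1 (R 4.3.3, intensity trend, robust variance) on log2(value + 1), for the 16085 genes reaching 1 in at least 4 libraries, with Benjamini-Hochberg adjustment and a threshold of 0.05. It was also tested on simulated data, whose spread was taken from the wild-type libraries only. Ratios were compared with exact permutation tests. On whole reads, edgeR 4.0.16 called 3025 genes higher (19.0% of 15936) and DESeq2 1.42.0 called 3516 (21.9% of 16082). Replicates of a group differed beyond sampling noise in all 12 pairs. The chi-square per gene was 10.2 to 29.6 among wild-type pairs and 44.7 to 195.7 among Opn5-null pairs. The main test fits a common variance per gene to both groups. Of gene identifiers, 16055 matched GENCODE M21 (GRCm38). Alternatives were 3 other scalings, filters, a pseudocount of 0.1, a block, other variance models and tests, and each library left out. The 10 genes, lists and motifs were chosen with earlier results of these data known. Named list genes were up to 4 called per direction by p in each list, and further genes were chosen after their values were seen. Of the named list genes, 2 are counted in their lists but not reported here singly.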

Additional observations from a re-analysis of the deposited data

Results flagged for a closer look

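In 114 groups of 4 libraries checked for a library far from the rest, 7 held one, which is near the chance rate of about 1 in 20. Among the 10 genes, Nkg7 was high in wild-type A, at 14.3 normalized counts against 2.80 to 4.59 in the other wild-type libraries. Among genes of the lists, H2-T23 was high in wild-type A (1446 against 1149 to 1180 normalized counts) and Stat4 in wild-type B (41.4 against 16.4 to 17.7). Ly6g, a neutrophil gene, was low in Opn5-null C (31.8 against 69.7 to 76.6) and high in wild-type B (12.9 against 6.54 to 7.16). Pax5 was high in wild-type A (13.3 against 3.68 to 4.78). The corneal endothelial gene Slc4a11 was high in Opn5-null C, at 4972 against 1917 to 2087 normalized counts.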

How the results depend on the processing

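All 10 genes kept their direction in every alternative run. Gzma, Gzmb, Prf1, Nkg7, Klrk1, Cd3g, Il2rb and Il2rg kept their call wherever they were tested, and the stricter low-value filter left Prf1, Nkg7 and Cd3e untested. From 8 to 10 genes were called with a library left out, and 8 with the library letter as a replicate block, with Klrd1 and Cd3e lost. No pairing by letter was seen: the correlation of deviations of same-lettered libraries was -0.16, -0.13, 0.14 and 0.13 for A to D. Between different letters it ran from -0.28 (Opn5-null C with wild-type D) to 0.325 (Opn5-null C with wild-type A). With 4 libraries per group these values are too few to tell whether letters share a batch. The block called 2545 genes higher and 1691 lower, and 63 of 105 listed genes higher. No ratio could pass in the sign-flip version of the block, whose smallest p is 0.125. Over all genes, 2175 were lower, against 3746 after quantile normalization, 3663 after upper-quartile scaling, 3526 by limma-voom and 1079 to 2543 with a library left out (1079, 1243 and 1289 without wild-type A, C and D), and 3029 were higher, against 2532 and 2528 after these scalings. These scalings shifted the median over all genes to -0.13 (log2). Of the 5 pair ratios, 0 passed (2 at an unadjusted p below 0.05), and 0 to 3 passed with a library left out. The 3 passed without wild-type B, where Gzma against Gzmb also reached the smallest p of the exact permutation test. Why that pair changed was not tested. That filter left 9 T cell and 8 NK cell genes higher, since fewer genes were tested. Wild-type reads were fewest for Prf1 (13), Gzmb (23) and Nkg7 (26).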
